A study of Mus musculus with 6 samples.

Results

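A set of genes that mark tuft cells were examined in RNA-seq data from mouse small intestinal adenomas. The members are 10 genes of the 48440 listed for each library, and each was found by its gene symbol: Dclk1, Trpm5, Pou2f3, Il25, Alox5, Alox5ap, Sh2d6, Gfi1b, Avil and Rgs13. All mice carried ApcMin, a mutation of the Apc tumor suppressor that produces intestinal adenomas, and all were older than 42 days on a C57BL/6 background. In the ApcMin, PCdel group (3 libraries), Defa4-Cre, a Cre recombinase knocked into a Paneth cell defensin locus, switched on diphtheria toxin A from the Rosa26 iDTA/WT allele, which depletes cells of the Paneth lineage. In the ApcMin, WT group (3 libraries), littermates carried Rosa26 iDTA/WT without Cre. The knock-in was made in 129/SvJ embryonic stem cells and then backcrossed to C57BL/6. The libraries were QC4, QC5 and QC6 for ApcMin, WT and QC3, QC8 and QC10 for ApcMin, PCdel. The number of mice behind each library is not stated in the sources used here, and each library was treated as an independent replicate.

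Tuft cells are rare chemosensory cells of the intestinal epithelium. They sense luminal metabolites and parasites through a taste-like cascade that ends at the cation channel Trpm5, and they answer with the cytokine IL-25 and with lipid mediators such as cysteinyl leukotrienes. IL-25 acts on type 2 innate lymphoid cells, whose IL-13 in turn raises the number of tuft and goblet cells. Pou2f3, a POU domain factor that binds the octamer motif, is needed for the lineage to form.

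Promoter sequences are shown because the members moved together across libraries while one of them, Avil, did not, and because the lineage factor Pou2f3 binds the octamer. The octamer ATGCAAAT (or ATTTGCAT on the other strand) and its 7-letter core ATGCAAA (or TTTGCAT), which lies within the octamer, were searched in the 250 bases before each RefSeq transcription start on GRCm38.p6. The matches are in capitals below, all sequences run 5′ to 3′ on the strand of the gene, and the last base of each lies just before the start. Trpm5 (chr7:143094643-143094892, minus strand) and Sh2d6 (chr6:72520037-72520286, minus strand) are shown from the members that moved together. Trpm5 is a weaker example. Its Pearson r was 0.67 with Pou2f3 and 0.73 with Alox5, but -0.11 and -0.09 without QC4 and QC8. Avil (chr10:127000459-127000708, plus strand) is the member that did not, and 1810046K07Rik (chr9:51328919-51329168, minus strand), which encodes a POU2F3 coactivator, is a gene outside the 10 that moved with them.
Trpm5: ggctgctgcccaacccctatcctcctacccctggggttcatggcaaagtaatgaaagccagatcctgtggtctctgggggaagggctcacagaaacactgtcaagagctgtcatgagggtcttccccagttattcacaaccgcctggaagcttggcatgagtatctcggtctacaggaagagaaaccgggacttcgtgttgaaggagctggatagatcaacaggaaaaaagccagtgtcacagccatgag
Sh2d6: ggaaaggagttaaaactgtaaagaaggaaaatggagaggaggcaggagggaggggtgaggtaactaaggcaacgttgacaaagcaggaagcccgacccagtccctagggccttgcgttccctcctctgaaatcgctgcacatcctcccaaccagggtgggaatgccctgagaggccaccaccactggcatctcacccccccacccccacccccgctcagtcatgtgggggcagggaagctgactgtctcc
Avil: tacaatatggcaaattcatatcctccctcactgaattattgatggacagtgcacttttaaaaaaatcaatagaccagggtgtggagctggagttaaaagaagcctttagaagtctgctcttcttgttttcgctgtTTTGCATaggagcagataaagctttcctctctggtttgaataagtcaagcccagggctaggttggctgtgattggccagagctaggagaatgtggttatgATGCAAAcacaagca
1810046K07Rik: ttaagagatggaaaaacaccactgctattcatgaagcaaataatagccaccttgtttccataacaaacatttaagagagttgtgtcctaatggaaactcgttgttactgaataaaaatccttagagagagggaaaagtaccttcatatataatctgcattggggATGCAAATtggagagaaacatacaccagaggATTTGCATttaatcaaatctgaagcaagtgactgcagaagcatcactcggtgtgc
The RefSeq table held 8 promoters of 7 members, and 0 of the 8 held the octamer, against 526 of all 32851 promoters (1.6%). The Avil promoter held the core at 2 places, beginning 115 and 15 bases before the start, and no other member promoter held it; 1355 of all promoters did (4.13%). Among 49 tuft-associated genes outside the 10, 41 had a promoter in the table, and 5 held the octamer (Sucnr1, Hpgds, Kctd12, Itpr3 and 1810046K07Rik). The promoter of 1810046K07Rik shown above held it at 2 places, beginning 86 and 55 bases before the start. Its other RefSeq promoter (chr9:51312670-51312919) held none. By Pearson r over the 6 libraries to the mean of the members, described below, the holders ranged from 0.96 for Kctd12 to 0.05 for Itpr3. It was 0.84 for 1810046K07Rik and 0.80 for Hpgds, and Sucnr1 was not tested. Spib, Pik3r5, Siglecf, Bmx and Matk had r of 0.98 to 0.99, and their promoters held no octamer. These matches describe letters only and say nothing of binding.

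The libraries held similar amounts of aligned sequence, estimated at 5.41 to 5.87 gigabases from the ratio of coverage to FPKM (a level corrected for gene length and sequencing depth). Of all genes, 14240 had a mean of at least 1 FPKM and were tested. Defa21, a Paneth cell defensin, averaged 240 FPKM in WT and 27.9 FPKM in PCdel, while Lyz1 (lysozyme) averaged 2060 and 1060 FPKM. The WT library QC6 stood apart from the others mainly in its enterocyte markers. Its 9 enterocyte markers (led by Apoa1, Apoa4, Fabp2 and Anpep) summed to 22256 FPKM, against 8614 to 14426 FPKM in the other 5 libraries, though Fabp2 and Anpep were highest in QC10. Its 8 epithelial markers (led by Krt8, Krt19, Epcam and Vil1) had the lowest sum, 4259 FPKM against 4708 to 6155 FPKM. Vil1 was not low in QC6 (466 FPKM). As a mean log2 level, the epithelial list stood at -0.21 in QC6 and -0.18 in QC3, relative to its mean over the libraries. Values without QC6 are therefore given beside the comparisons of the 8 members tested, with the other left-out libraries that moved a value most.

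Of the 10 tuft cell markers, 8 had a mean of at least 1 FPKM, and none passed the test of a difference between the genotypes. With limma on log2(FPKM + 1), 0 of the 8 passed an adjusted p of 0.05 (adjusted p = 1.0 for each), against 2 of all 14240 genes (0.014%), which were Hist2h2aa1 and Rab43, named here after their values were seen. At an unadjusted p under 0.05, 0 of the 8 passed, against 481 of all genes (3.38%), of which 79.8% were higher in PCdel (58.9% after quantile normalization). The groups overlapped for all 10 members, while 1073 of all genes tested (7.54%) did not overlap. The fold change was above 0 in 6 of the 8 members with a median of 0.28, against 63.1% of all genes with a median of 0.04. With 3 libraries against 3, the smallest two-sided p of an exact permutation test is 0.1. In whole adenomas, the number of tuft cells and the RNA per tuft cell cannot be told apart.

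Among the transcription factors, Pou2f3 (chr9:43123939-43210369, minus strand) was listed at 0.483 FPKM in QC4, 0.584 FPKM in QC5 and 1.80 FPKM in QC6 of the WT group, and at 1.6, 2.66 and 0.841 FPKM in QC3, QC8 and QC10 of the PCdel group, an order of libraries kept for all genes here. QC8 and QC6 were the highest libraries, one of each genotype. The means were 0.957 ± 0.734 FPKM in WT and 1.70 ± 0.912 FPKM in PCdel (SD, n = 3), a log2 fold change of 0.47 (SE 0.33, 95% interval -0.32 to 1.26, exact permutation p = 0.3). Without QC6 the log2 fold change of Pou2f3 was 0.76 and passed an unadjusted 0.05, with a limma adjusted p = 0.845. It was 0.22 without QC8, 0.30 without QC4 and 0.72 without QC10. Gfi1b (chr2:28609450-28621982, minus strand), a zinc finger repressor also used by megakaryocytes and red cell precursors, was listed at 0.032, 0.083 and 0.755 FPKM in WT and at 0.404, 0.60 and 0.544 FPKM in PCdel. Again QC6 was above the other WT libraries, by 13.1 times their mean, and the PCdel libraries lay inside the WT range. That ratio rests on values near 0. Scaled from the deposited coverage, Gfi1b would be at 0.0323, 0.0822 and 0.418 FPKM in the WT libraries, a smaller ratio. The fit without a filter on low values gave a log2 fold change of 0.27 for Gfi1b (SE 0.21, 95% interval -0.26 to 0.80, exact permutation p = 0.4).

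For the taste-type signalling members the genotypes overlapped as well. Trpm5 (chr7:143069153-143094642, minus strand), the calcium-activated cation channel that depolarises tuft and taste cells, was listed at 2.55, 3.98 and 4.95 FPKM in WT and at 3.12, 6.79 and 4.92 FPKM in PCdel. The log2 fold change was 0.28 (SE 0.28, 95% interval -0.39 to 0.96, exact permutation p = 0.5), with means of 3.83 ± 1.21 and 4.94 ± 1.83 FPKM (SD, n = 3). It was 0.45 without QC6, 0.53 without QC3, 0.08 without QC4 and 0.07 without QC8. Rgs13 (chr1:144138654-144177372, minus strand), which speeds the shut-off of G protein signals and is also known from mast cells and germinal centre B cells, was listed at 1.85, 3.09 and 8.91 FPKM in WT and at 2.32, 4.79 and 4.08 FPKM in PCdel. All 3 PCdel values of Rgs13 lay between the WT extremes. Its log2 fold change was -0.08 (SE 0.46, 95% interval -1.19 to 1.02, exact permutation p = 1.0), and it was 0.43 without QC6 (limma adjusted p = 0.862) and 0.15 without QC3.

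Dclk1 and Sh2d6 showed the widest spread among the members above 1 FPKM in every library. Dclk1 (chr3:55242364-55539068, plus strand), a microtubule-associated kinase used to stain tuft cells, was listed at 2.42, 1.40 and 5.02 FPKM in WT and at 4.82, 8.32 and 2.58 FPKM in PCdel. QC8 was 5.96 times QC5, and the means were 2.95 ± 1.87 FPKM in WT and 5.24 ± 2.89 FPKM in PCdel (SD, n = 3). The log2 fold change of Dclk1 was 0.66 (SE 0.44, 95% interval -0.39 to 1.71, exact permutation p = 0.3), and without QC6 it was 1.02 (limma adjusted p = 0.845). It was 1.0 without QC10, 0.35 without QC5 and 0.31 without QC8. Sh2d6 (chr6:72513644-72521634, minus strand), an adaptor protein with an SH2 domain, was listed at 2.81, 4.62 and 11.9 FPKM in WT and at 5.58, 16.0 and 3.86 FPKM in PCdel. QC6 was 3.20 times the mean of the other WT libraries and QC8 was 3.39 times the mean of the other PCdel libraries. The log2 fold change of Sh2d6 was 0.33 (SE 0.59, 95% interval -1.08 to 1.73, exact permutation p = 0.6), and it was -0.20 without QC8 and -0.06 without QC4, so its direction rested on those libraries. It was 0.82 without QC6 and 0.70 without QC10.

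The enzyme pair of leukotriene synthesis also overlapped between the genotypes. Alox5 (chr6:116410077-116461178, minus strand), the 5-lipoxygenase that makes leukotriene A4, was listed at 1.26, 2.06 and 3.22 FPKM in WT and at 2.56, 4.14 and 1.66 FPKM in PCdel. Its log2 fold change was 0.25 (SE 0.31, 95% interval -0.49 to 0.98, exact permutation p = 0.6), and it was -0.0014 without QC8, 0.02 without QC4, and 0.47 without QC6 or without QC10. Alox5ap (chr5:149264767-149288153, plus strand), the membrane protein that hands arachidonic acid to Alox5, was listed at 5.0, 6.79 and 12.7 FPKM in WT and at 6.49, 10.5 and 4.82 FPKM in PCdel. Its log2 fold change was -0.12 (SE 0.36, 95% interval -0.98 to 0.74, exact permutation p = 0.7), and it was 0.22 without QC6 and 0.11 without QC10, so its sign rested on those libraries.

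Avil (chr10:127000709-127020994, plus strand), which encodes advillin, an actin-binding protein of the villin family found in the tuft cell brush, was the most abundant member and the exception. It was listed at 46.3, 35.5 and 31.1 FPKM in WT and at 53.9, 50.4 and 33.6 FPKM in PCdel. QC6, the highest WT library for the other 9 members, was the lowest of all 6 for Avil. The means were 37.6 ± 7.78 and 45.9 ± 10.9 FPKM (SD, n = 3), a log2 fold change of 0.27 (SE 0.22, 95% interval -0.26 to 0.80, exact permutation p = 0.3). Without the PCdel library QC10 the log2 fold change of Avil was 0.48 and passed an unadjusted 0.05, with a limma adjusted p = 0.993. It was 0.14 without QC3, 0.15 without QC6 and 0.43 without QC4.

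Il25 (chr14:54932695-54935837, plus strand), the cytokine through which tuft cells signal, was listed at 0.278 FPKM in QC6 and at 0.105 FPKM in QC8, and at 0 in the other 4 libraries. The libraries in which it was listed above 0 were those in which most other members were highest, and no fold is given for so few values. Without counts, a listed 0 cannot be told from a failed estimate.

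**Figure D1:**
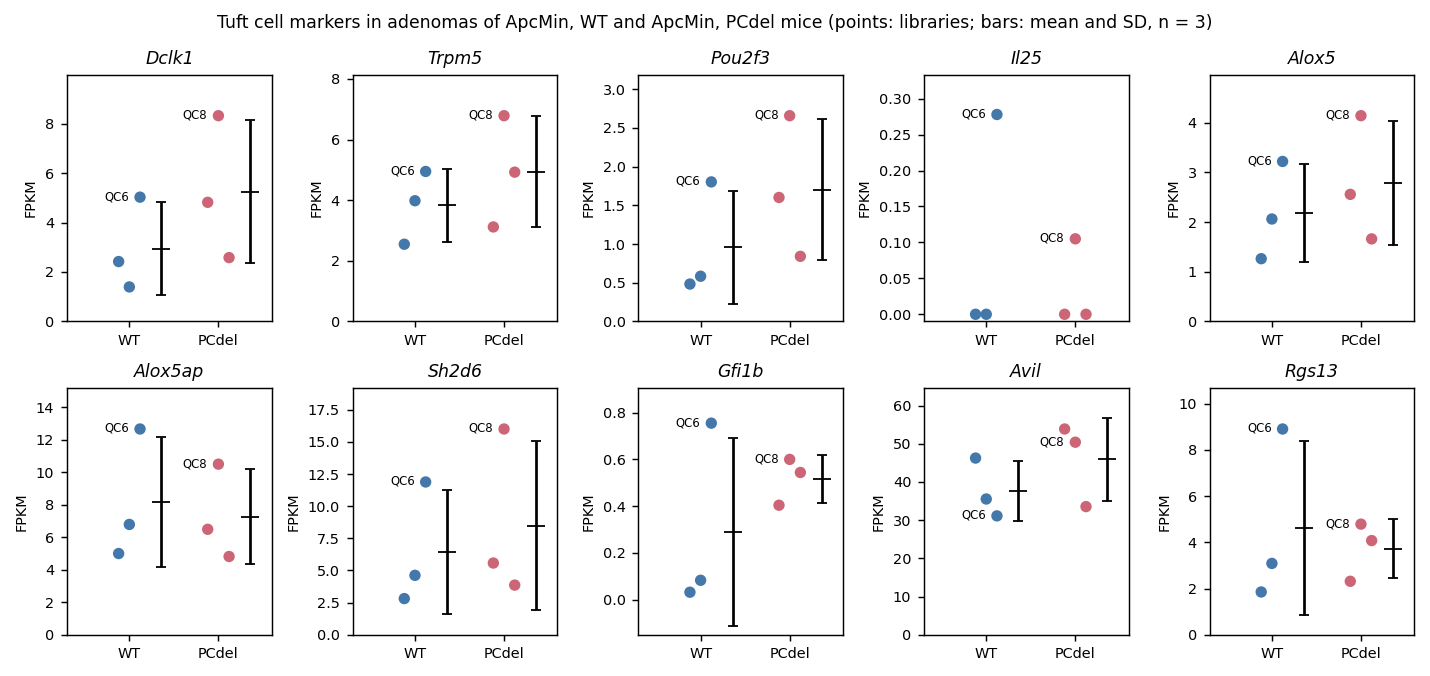
FPKM of each tuft cell marker (vertical axes, one scale per gene) in the ApcMin, WT and ApcMin, PCdel libraries (points), with the mean and SD of the 3 libraries beside them except for Il25, which was listed at 0 in 4 libraries. QC6 and QC8 are the top pair in every panel but that of Avil, where QC6 is the lowest library at 31.1 FPKM.

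**Figure D2:**
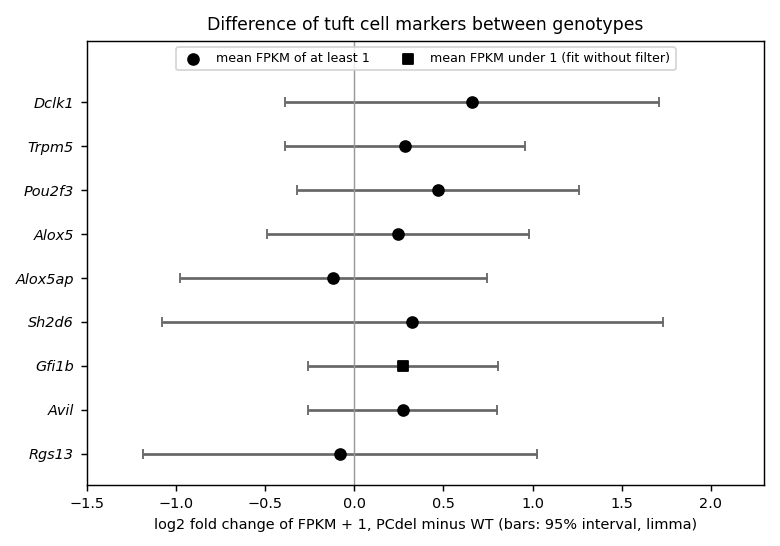
Log2 fold change of FPKM + 1 (PCdel minus WT) for the tuft cell markers other than Il25, with the 95% interval of limma (bars); circles are members with a mean of at least 1 FPKM and the square is Gfi1b, from the fit without a filter. All intervals include 0, from the narrowest for Avil (-0.26 to 0.80) to the widest for Sh2d6 (-1.08 to 1.73).

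By mean level over the 6 libraries the order was Avil (41.8 FPKM), Alox5ap (7.71), Sh2d6 (7.46), Trpm5 (4.38), Rgs13 (4.17), Dclk1 (4.09), Alox5 (2.48), Pou2f3 (1.33), Gfi1b (0.403) and Il25 (0.0637). By the range over the libraries, only Avil was separated from its neighbour, since its lowest library (31.1 FPKM) was above the highest of Alox5ap (12.7 FPKM). The ranges of all other neighbours overlapped. Within every single library, though, Alox5 was above Pou2f3, Pou2f3 above Gfi1b, and Gfi1b above Il25. Levels of some members are less certain. Counting by strand is not stated in the sources used here, and exons of Avil overlap those of Tsfm on the opposite strand by 165 bases (4.9% of Avil exon bases, Tsfm at 20.5 to 26.0 FPKM), while exons of Trpm5 overlap those of Tssc4 by 220 bases (3.4%, Tssc4 at 7.84 to 11 FPKM). For Dclk1 the deposited coverage was 0.521 to 0.863 times the FPKM and for Alox5ap 0.647 to 0.822 times, against 5.41 to 5.87 as the most common ratio of a library and 4.36 to 4.66 for Avil. Scaled from coverage, mean Dclk1 would be 0.509 FPKM and mean Alox5ap 1.03 FPKM, while Trpm5 would be 1.92, Sh2d6 4.27, Alox5 1.46 and Gfi1b 0.207 FPKM. The order of the members below Avil therefore depends on which column is used, and on coverage Rgs13 (3.9 FPKM) would stand above Trpm5.

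The shared pattern was a pair of libraries, one in each genotype, that ranked highest, though not always by a clear margin. In 9 of the 10 members (all but Avil) the top pair of libraries was QC6 and QC8, a feature noted after the values were seen. Of all 14240 genes tested, 576 (4.04%) had that top pair. Across the 6 libraries, 32 of 36 pairs among the 9 members with a mean of at least 0.1 FPKM had a Pearson r above 0, and 20 had an r above 0.7. The 28 pairs without Avil all had an r above 0 (0.44 to 0.98, median 0.74). The 8 pairs with Avil had r from -0.61 to 0.43, with a median of -0.05.

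The closest pair was Alox5 and Sh2d6, at r = 0.98 (exact permutation p = 0.00139, adjusted p = 0.682; Spearman rho = 1.0, p = 0.00278). Without QC4 and QC8, the libraries farthest from the median of Alox5, r was 0.94. For Dclk1 and Pou2f3, r was 0.96 (exact permutation p = 0.0125, adjusted p = 0.708; rho = 0.94, p = 0.0167) and 0.97 without QC5 and QC8. Both pairs thus kept their relation without those libraries, but the high library QC6 stayed in. Without QC6 alone, r was 0.98 for Alox5 and Sh2d6 and 0.95 for Dclk1 and Pou2f3. For Pou2f3 and Sh2d6, r was 0.92 (exact permutation p = 0.00556, adjusted p = 0.628; rho = 0.94, p = 0.0167) and 0.77 without QC4 and QC8. For Trpm5 and Pou2f3, r was 0.67 (exact permutation p = 0.156, adjusted p = 1.0; rho = 0.83, p = 0.0583) and -0.11 without QC4 and QC8, and for Alox5ap and Rgs13, r was 0.80 (exact permutation p = 0.0556, adjusted p = 0.487; rho = 0.66, p = 0.175) and -0.12 without QC6 and QC8. These 2 relations rested on the libraries left out. The adjusted p of each pair counts the correlations of its first member with every gene tested, or those of Gfi1b in the pairs with Gfi1b. No pair passed 0.05. The smallest p that 720 pairings can give for r is 0.00139.

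Over the 28 pairs without Avil, the median r was 0.57 once the 2 libraries farthest from the median of the first gene were left out, and 24 stayed above 0. Taking each library as its deviation from the mean of its genotype left all 28 above 0, with a median of 0.78. Leaving out single libraries gave 12 to 25 of the 36 pairs above 0.7, the fewest without QC4. Across genes, which are not independent replicates, 3.72% to 6.43% of all genes tested had an r above 0.7 with a given member other than Avil, against 16.9% for Avil. All r are over the same 6 libraries and share their depth and composition.

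**Figure D3:**
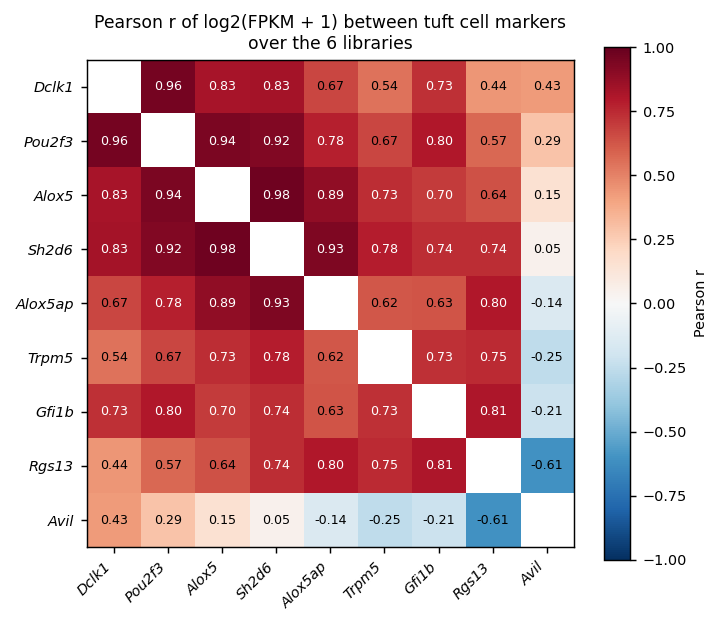
Pearson r of log2(FPKM + 1) over the 6 libraries for each pair of the 9 tuft cell markers with a mean of at least 0.1 FPKM (rows and columns; color scale from -1 to 1). The 28 pairs without Avil lie between 0.44 and 0.98, and the row of Avil lies between -0.61 and 0.43.

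Genes that most resembled the members were ranked by Pearson r over the 6 libraries to the mean standardised level of the 8 members above 1 FPKM. Among the 10 genes with the highest r were Pygl (0.9985), Clca1, Strip2, Sh2d7, Spib, Pxn, Pik3r5, Siglecf and Large (0.987). A high r does not require a large change, and Pxn (38.8 to 45.2 FPKM) and Large (2.76 to 3.62 FPKM) varied little. Of all genes tested, 715 (5.02%) had an r above 0.7. Spib, an ETS factor, was listed at 1.08, 1.66 and 5.09 FPKM in WT and at 3.27, 6.68 and 2.13 FPKM in PCdel. The top pair of libraries it shared with the members is part of how these genes were chosen, not a separate result. Siglecf, a sialic acid-binding lectin of tuft cells and eosinophils, was listed at 0.706, 1.15 and 3.98 FPKM in WT and at 1.55, 5.86 and 1.13 FPKM in PCdel. Of the eosinophil markers, Epx was listed at 0 in all 6 libraries, Prg2 at 1.95 to 5.07 FPKM, and Ccr3 at 0.236 to 0.568 FPKM. Clca1, a secreted product of goblet cells, was far more abundant, at 136, 167 and 421 FPKM in WT and at 251, 703 and 192 FPKM in PCdel. When Avil was left out of the mean, the 10 included Lrmp, Sh2d7, Pygl, Siglecf, Bmx, Pik3r5, Cflar (14.2 to 17.7 FPKM), Spib and Large.

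**Figure D4:**
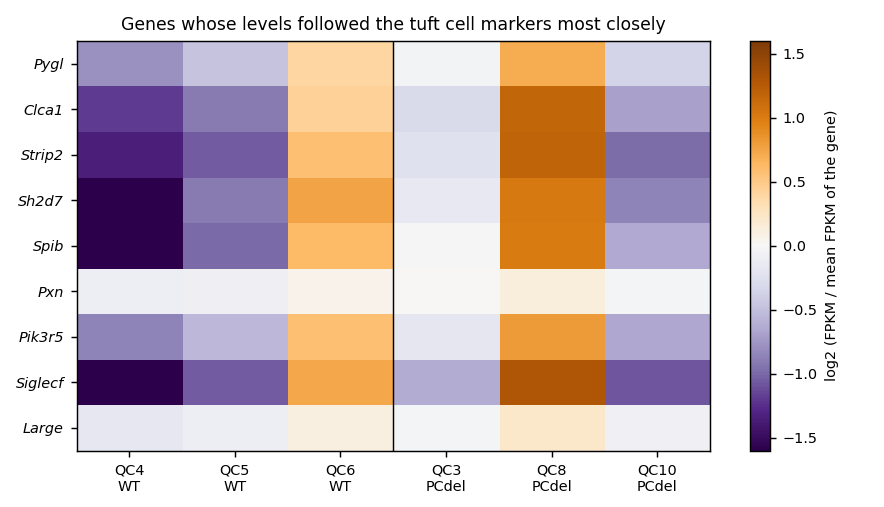
Log2 of the FPKM divided by the mean FPKM of the gene (color) for 9 of the 10 genes with the highest r to the tuft cell markers (rows) in the 6 libraries (columns, WT on the left). QC6 and QC8 are the top pair of libraries in each row, which follows from choosing genes by their r to the members. For Clca1 they held 421 and 703 FPKM.

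Beyond the 10 members, 4 lists of tuft-associated genes held 49 genes, of which 38 were tested. None passed an adjusted p of 0.05 with limma. At an unadjusted p under 0.05, 2 were higher in PCdel (5.26% of those tested) and 0 were lower, against 2.7% and 0.681% of all genes. The fold change was above 0 in 29 and below 0 in 9, with a median of 0.17. QC6 and QC8 were the top pair in 16 of the 38 (42.1%), against 4.04% of all genes, and r to the members was above 0.7 in 20 (52.6%).

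Among the taste-type signalling genes, 4 of 10 were tested. Gnb1, a G protein beta subunit, averaged 154 ± 6.83 FPKM in WT and 156 ± 13.0 FPKM in PCdel (SD, n = 3), and Itpr3, the endoplasmic reticulum calcium channel of taste cells, averaged 25.0 ± 3.84 and 26.2 ± 4.02 FPKM. Itpr2, its relative, was listed at 4.17, 3.17 and 3.11 FPKM in WT and at 4.52, 6.39 and 4.19 FPKM in PCdel. The groups did not overlap for Itpr2, with a log2 fold change of 0.42 (SE 0.17, limma adjusted p = 1.0). Plcb2, the phospholipase of the taste cascade, averaged 1.41 ± 0.633 and 1.23 ± 0.425 FPKM and had an r of 0.74 to the members. Of the genes not tested, Gnat3, the taste G protein gustducin, was listed at 0 to 0.575 FPKM and Sucnr1, the succinate receptor, at 0.188 to 1.54 FPKM. Both were highest in QC8, as was Ffar3, but Gnat3 was at 0.087 FPKM in QC6. The others peaked elsewhere, Gng13 in QC3 (2.73 FPKM, against 0.915 FPKM in QC8) and Tas1r3 and Tas1r1 in QC5.

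Of 9 transcription factors and coactivators, 7 were tested and 0 passed an unadjusted p of 0.05. Sox4, Sox9, Atoh1 and Runx1, which are not limited to tuft cells, were the most abundant and had r of -0.41, 0.03, -0.35 and -0.10 to the members. The POU2F3 coactivator gene 1810046K07Rik was listed at 0.964, 0.771 and 5.37 FPKM in WT and at 1.53, 2.95 and 1.09 FPKM in PCdel, with an r of 0.84. Gm684, which encodes its relative, had an r of -0.04 and was listed at 2.54 to 4.75 FPKM.

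All 7 eicosanoid enzymes were tested. Ptgs2, the inducible cyclooxygenase, was listed at 2.41, 2.32 and 4.76 FPKM in WT and at 7.50, 11 and 6.17 FPKM in PCdel, and the groups did not overlap. Its log2 fold change was 1.16 (SE 0.28, limma adjusted p = 1.0). Lta4h, leukotriene A4 hydrolase, averaged 90.5 ± 3.64 and 88.7 ± 11.1 FPKM, and Ptgs1, the constitutive cyclooxygenase, 11.2 ± 1.31 and 12.4 ± 3.52 FPKM. Ltc4s, leukotriene C4 synthase, which acts after Alox5 and Alox5ap, was listed at 2.72, 3.32 and 7.52 FPKM in WT and at 4.0, 4.97 and 2.75 FPKM in PCdel, again with QC6 and QC8 on top. Its r to the members was 0.83, and that of Lta4h was -0.70.

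Of the 23 other tuft-associated genes, 20 were tested, 0 passed an unadjusted p of 0.05, and 13 had an r above 0.7. The most abundant of them, Krt18, Cd24a, Atp2a3 and Espn, had r of -0.42, -0.25, 0.13 and 0.38. Lrmp, an endoplasmic reticulum protein, was listed at 1.79, 3.59 and 11.9 FPKM in WT and at 4.36, 13.9 and 3.37 FPKM in PCdel. Bmx, a Tec-family kinase, was listed at 0.275, 0.577 and 2.70 FPKM in WT and at 1.29, 2.89 and 0.688 FPKM in PCdel. Both showed the top pair of libraries seen in the members, and both were named above for a high r to them.

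The IL-25 and type 2 list held 15 genes, of which 8 were tested. Il17rb, the receptor subunit for IL-25, was listed at 0.961, 1.03 and 1.63 FPKM in WT and at 1.10, 2.70 and 0.940 FPKM in PCdel, with an r of 0.93 to the members. Retnlb, a goblet cell product induced by IL-13, was listed at 13.2, 49.3 and 39.2 FPKM in WT and at 46.0, 161 and 9.01 FPKM in PCdel, with an r of 0.79. Il13 was listed at 0 to 0.142 FPKM and Il5 at 0 to 0.0391 FPKM. Il1rl1, the receptor for IL-33, was listed at 33.7, 26.7 and 26.8 FPKM in WT and at 59.8, 60.0 and 43.8 FPKM in PCdel, without overlap, with a log2 fold change of 0.88 (SE 0.16, limma adjusted p = 0.979). Il33 averaged 72.7 ± 31.4 and 66.4 ± 13.4 FPKM, and Il13ra1 averaged 58.4 ± 4.32 and 62.7 ± 11.2 FPKM.

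Several members are also known from other cells, whose markers were therefore read beside them. The 10 mast cell markers (led by Mcpt1, Mcpt2, Cpa3 and Mcpt4), from cells that use Alox5, Alox5ap and Rgs13, summed to 478, 1012 and 854 FPKM in WT and to 1008, 333 and 270 FPKM in PCdel. The sum was high in QC6, where Alox5ap and Rgs13 were highest, and low in QC8, where Alox5 was highest, and 0 of the 9 tested had an r above 0.7 to the members; their part in the member values was not tested. The 10 macrophage markers (led by C1qa, C1qb, C1qc and Cd14), from cells that use Alox5ap, summed to 117 to 128 FPKM in WT and 147 to 168 FPKM in PCdel. Of 9 tested, Adgre1, C1qb and C1qc were higher in PCdel at an unadjusted limma p under 0.05. Over all genes tested, 2.7% were higher and 0.681% were lower at that threshold. Of these macrophage markers, 4 had an r above 0.7 to the members, and their part in the member values was not tested. The 10 neutrophil markers (led by Retnlg, S100a9, Ly6g and S100a8) summed to 8.88 to 30.5 FPKM, with the lowest sum in QC6 and the highest in QC8. Ngp, Camp and Elane were at 0 in every library, and Retnlg was higher in PCdel at an unadjusted limma p under 0.05.

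The 10 B cell and germinal centre markers (led by Cd79a, Bcl6, Cd79b and S1pr2) summed to 23.4 to 30.5 FPKM, with the highest sum in QC6, where Rgs13 was highest, and Fcer2a at 0 in all 6 libraries. Of 4 tested, Bcl6 had an r above 0.7 to the members (0.79); its part in the values of Rgs13 was not tested. Of the 6 megakaryocyte and platelet markers (led by Gp1bb, Pf4, Itga2b and Ppbp), 3 were tested and 0 had an r above 0.7. Pf4 was higher in PCdel at an unadjusted limma p under 0.05, as were 2.7% of all genes tested. The 6 eosinophil markers (led by Prg2, Ccr3, Il5ra and Ear6) summed to 2.39 to 5.59 FPKM. The 8 neuron and glia markers (led by Ret, Uchl1, Tubb3 and S100b), which could also carry Avil, summed to 7.50 to 12.8 FPKM. The 8 stromal markers (led by Acta2, Col3a1, Col1a1 and Col1a2) summed to 226 to 360 FPKM, 1 of them, Myh11, had an r above 0.7 (0.84), and Pdgfra was higher in PCdel at that unadjusted threshold. Of the 8 Paneth cell markers (led by Defa24, Lyz1, Itln1 and Ang4), Lyz1, Defa21, Defa22, Mptx2 and Itln1 were lower in PCdel at an unadjusted limma p under 0.05, the genotype check of these libraries. Over all genes tested, 0.681% were lower at that threshold. None of the Paneth cell markers passed the adjusted threshold (smallest limma adjusted p = 0.309). Their sums overlapped, at 5225, 8053 and 11139 FPKM in WT and at 3493, 6009 and 3470 FPKM in PCdel. Ang4 was highest in QC8 (1173 FPKM) and had an r of 0.82 to the members.

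**Figure D5:**
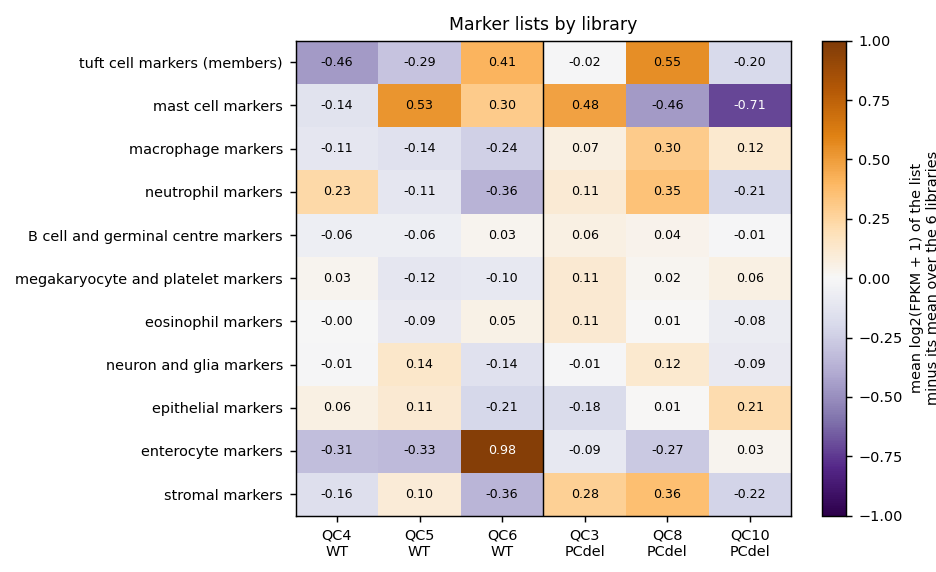
Mean log2(FPKM + 1) of each marker list minus its mean over the 6 libraries (color and printed values), with lists as rows and libraries as columns. The tuft cell markers stood at 0.41 in QC6 and 0.55 in QC8, while the mast cell markers stood at 0.30 and -0.46 and the enterocyte markers at 0.98 and -0.27.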

How the data were processed

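RNA from small intestinal adenomas of ApcMin, PCdel mice (3 libraries) and ApcMin, WT mice (3 libraries) was sequenced on the HiSeq2500 after TruSeq RNA library preparation. Per the labels and the study's methods, the authors used CLC Genomics Workbench 7 and a MatLab normalization whose settings are not given; the program and annotation behind the deposited gene tables are not given in the sources used here, and gene positions match GRCm38. The authors deposited FPKM, TPM and coverage (a signal per gene) for each library, with no read counts, so no count test was run. Replicates are separate libraries, and whether each came from a separate mouse is not stated in the sources used here.

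FPKM as deposited was analysed as log2(FPKM + 1), so that fold changes of low genes are understated. Genes with a mean of at least 1 FPKM over the 6 libraries were tested with limma 3.58.1 (R 4.3.3, eBayes with trend) and p-values were adjusted by the Benjamini-Hochberg method over all of them. Where rows shared a symbol, a named gene was read from the row with the highest mean. Members were also tested with a two-sided exact permutation test over the 20 ways to assign 3 of 6 libraries to a group, and correlations over all 720 pairings, with p-values adjusted over the correlations of a member with every gene tested. Named genes were the 10 members, the up to 4 most abundant genes of each list and its genes with an unadjusted p under 0.05, the 10 genes most like the members, and list genes that bear on a member. One gene that met this rule is not reported here. The members and lists were chosen with earlier results of these data known. Promoters and their coordinates came from RefSeq (GRCm38.p6); exon overlaps came from GENCODE M21. Alternatives were other pseudocounts, filters, scalings, weights, TPM, coverage in place of FPKM, and leaving out each library. The fit was tested on simulated data. No depth in reads is known, so no counting interval is given.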

Additional observations from a re-analysis of the deposited data

How the results depend on the processing

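No paired analysis was possible because the labels link no library of one genotype to one of the other. No member passed an adjusted p of 0.05 in any of 15 planned fits or in the fit on coverage in place of FPKM, which was chosen after seeing the data, as was the likeness without Avil; the smallest adjusted p was 0.471. Dclk1 fell below the filter on coverage. With array quality weights, 2 members had an unadjusted limma p under 0.05 (Dclk1, log2 fold change 1.18, and Pou2f3, 0.78), and leaving out single libraries gave 0 to 1 members (Pou2f3 without QC6, Avil without QC10). QC6 had the lowest weight, 0.237.

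The sign changed for Alox5ap with array weights (0.16), without QC6 (0.22) and without QC10 (0.11; range over left-out libraries -0.38 to 0.22), for Rgs13 with array weights (0.19), without QC6 (0.43) and without QC3 (0.15; range -0.47 to 0.43), for Sh2d6 without QC4 (-0.06) and without QC8 (-0.20; range -0.20 to 0.82), and for Alox5 without QC8 (-0.0014; range -0.0014 to 0.47). Signs of Dclk1, Trpm5, Pou2f3 and Avil held in all fits that gave a value (with a library left out, 0.31 to 1.02, 0.07 to 0.53, 0.22 to 0.76 and 0.14 to 0.48). The cause was not tested.

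Over all genes, 2 passed the adjusted threshold, 1 with no filter or with median centring, and 1 to 5 with a library left out (5 without QC4). The 481 genes at an unadjusted p under 0.05 became 976 with no filter, 250 with epithelial markers subtracted, 1270 with array weights, and 353 to 824 with a library left out (824 without QC6). The share of them higher in PCdel, 79.8%, was 58.9% with quantile normalization, 61.4% with median centring, 63.2% with epithelial markers subtracted, 63.5% with array weights, 88.7% with TPM (which moved the median fold change of all genes to 0.10) and 59.3% without QC6. Pairs of members with r above 0.7, 20 of 36, numbered 12 to 25 with a library left out. Depth in reads is unknown, and 3 libraries a group leave intervals as wide as -1.08 to 1.73.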
